A study of Mus musculus with 6 samples.

Results

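The immunity-related GTPases (IRGs) and guanylate-binding proteins (GBPs) are families of interferon-induced enzymes that defend a cell from within. The genes described here are 4 IRGs (Irgm1, Irgm2, Igtp and Iigp1) and 4 GBPs (Gbp2, Gbp3, Gbp5 and Gbp7), taken by symbol as 8 of the 48897 genes in the authors' deposited count table. They were proposed with their counts in these libraries in view, so their levels and differences are given as a description, without p-values. How many of them passed in the fit over all genes is given beside the share of all genes, and nothing is read from it. RNA was sequenced from C57BL/6 mouse embryonic fibroblasts, between passages 5 and 7, in 3 groups of 2 libraries each. Control cells received phosphate-buffered saline. The group called TC received TNF-α, an inflammatory cytokine, with cycloheximide, which blocks translation. The group called TCZ received both agents with z-VAD-fmk, a broad caspase inhibitor. The series title ties these treatments to apoptosis and necroptosis. The sources used here give neither dose nor time, no group received TNF-α without cycloheximide, and no label says that the libraries in a group were separate cultures.

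IRGs and GBPs bind and hydrolyse GTP and assemble on the membranes of vacuoles that hold pathogens such as Toxoplasma gondii and Chlamydia, as well as on some cytosolic bacteria. Irgm1, Irgm2 and Igtp (also called Irgm3) are regulators that sit on the cell's own membranes and hold the effector IRGs in their inactive state, while Iigp1 (Irga6) is an effector that coats the vacuole. In fibroblasts both families are known as responses to interferon-γ and, for many members, to type I interferons. These signals reach the genes through STAT factors binding at GAS elements and through ISGF3 or interferon regulatory factors binding at ISRE elements.

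Libraries held 24922627 to 52909926 counts. The second control and the second TCZ library (control 2 and TCZ 2) were unlike the rest: their totals were the lowest, and the small nuclear RNA gene Rnu1a1 had 3 and 1 counts there against 165 to 274 elsewhere. Values without both libraries are given beside many of the results that move with them. All 12 fibroblast markers (Col1a1, Col1a2, Col3a1 and others) were detected, at a summed 38200 to 43950 CPM (counts scaled to a common library size) per library. The 12 macrophage and leukocyte markers summed to 15.9 to 16 CPM in control, 12.3 to 15.1 in TC and 25.1 to 27.6 in TCZ, with Aif1 and Cd3e at 10 counts or fewer in every library. The endothelial list summed to 12.6 to 13.2 CPM in control, 141 to 148 in TC and 56.6 to 57.6 in TCZ, and the epithelial list to 16.8 to 19.4, 75.8 to 82.7 and 13.5 to 17.9 CPM. Tie1, Krt5 and Krt14 from these lists had 10 counts or fewer in every library. By these sums the last 2 lists were highest in TC, as were the GTPase genes. Single endothelial markers did not share that order. Of 6 tested in TC against control, Kdr and Vwf rose, Tek fell and Pecam1, Cdh5 and Emcn did not pass (median log2 difference 0.28). In TCZ against TC, Pecam1, Cdh5 and Tek rose and Kdr and Vwf fell (median 0.99). Of 6 epithelial markers tested, 5 rose in TC, and 4 fell in TCZ against TC. The part of these lists in the results was not tested.

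The sequences just upstream of the start sites are shown because each of the 7 members with a promoter entry in RefSeq (build GRCm38.p6) carried an ISRE pattern there. The ISRE was searched as GAAA, any 2 bases and GAAA again, and the GAS as TTCNNNGAA, on both strands, in windows from 250 bases before to 50 bases after each start. Of 32851 promoter windows of all genes, 3.44% held the ISRE pattern and 8.3% held the GAS pattern. Capitals mark ISRE and GAS matches in the 180 bases before the start, written 5′ to 3′ on the gene's strand. The stretches are chr11:48871421-48871600 (minus strand) for Irgm1, chr11:58214797-58214976 for Irgm2, chr11:58199376-58199555 for Igtp, chr3:142620483-142620662 for Gbp2, chr3:142559864-142560043 for Gbp3, chr3:142496754-142496933 for Gbp5 and chr3:142530156-142530335 for Gbp7, the last 6 on the plus strand.
Irgm1: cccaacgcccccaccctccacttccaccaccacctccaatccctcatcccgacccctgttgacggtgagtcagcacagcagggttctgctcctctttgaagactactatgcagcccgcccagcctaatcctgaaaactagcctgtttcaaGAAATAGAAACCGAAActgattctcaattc
Irgm2: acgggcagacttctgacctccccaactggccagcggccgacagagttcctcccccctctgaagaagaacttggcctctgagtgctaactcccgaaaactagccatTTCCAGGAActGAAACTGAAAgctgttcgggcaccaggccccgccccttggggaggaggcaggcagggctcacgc
Igtp: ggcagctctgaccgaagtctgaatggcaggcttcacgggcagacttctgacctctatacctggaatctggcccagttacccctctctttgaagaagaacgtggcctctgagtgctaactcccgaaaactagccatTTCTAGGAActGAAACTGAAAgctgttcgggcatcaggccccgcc
Gbp2: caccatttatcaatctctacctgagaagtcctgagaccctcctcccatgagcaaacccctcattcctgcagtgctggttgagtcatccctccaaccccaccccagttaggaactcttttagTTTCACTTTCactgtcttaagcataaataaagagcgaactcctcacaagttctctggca
Gbp3: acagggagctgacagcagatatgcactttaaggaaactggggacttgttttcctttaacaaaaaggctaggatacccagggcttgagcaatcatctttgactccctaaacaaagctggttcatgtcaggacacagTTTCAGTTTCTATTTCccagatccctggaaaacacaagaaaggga
Gbp5: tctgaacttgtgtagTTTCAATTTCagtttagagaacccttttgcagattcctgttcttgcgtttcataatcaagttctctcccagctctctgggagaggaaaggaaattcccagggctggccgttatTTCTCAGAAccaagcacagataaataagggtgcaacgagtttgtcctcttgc
Gbp7: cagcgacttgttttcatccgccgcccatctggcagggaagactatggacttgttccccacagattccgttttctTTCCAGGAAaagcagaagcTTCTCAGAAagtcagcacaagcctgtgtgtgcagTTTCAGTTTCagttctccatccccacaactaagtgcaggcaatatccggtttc
The ISRE pattern began at -30 and -24 in Irgm1, as overlapping matches, at -64 in Irgm2, at -34 in Igtp, at -59 in Gbp2, at -45 and -39 in Gbp3, at -165 in Gbp5 and at -53 in Gbp7, counted from the RefSeq start site. Irgm1 as counted by the authors extends to chr11:48871454, beyond its RefSeq start. Both Irgm1 matches therefore lie inside the gene as counted. The GAS pattern was present in 4 of the 7, at -75 in Irgm2, -45 in Igtp, -245 and -52 in Gbp5, and -106 and -87 in Gbp7. A second Gbp3 start in the table had neither pattern. The NF-kB consensus matched in the window of 1 member, Gbp5, and in 4.51% of all windows. Among other IRG genes with an entry, 5 of 9 held the ISRE and 4 of 9 the GAS pattern. Iigp1 had no promoter entry in the table. A match is a string of letters and is neither a shown binding site nor a cause of a level.

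**Figure D1:**
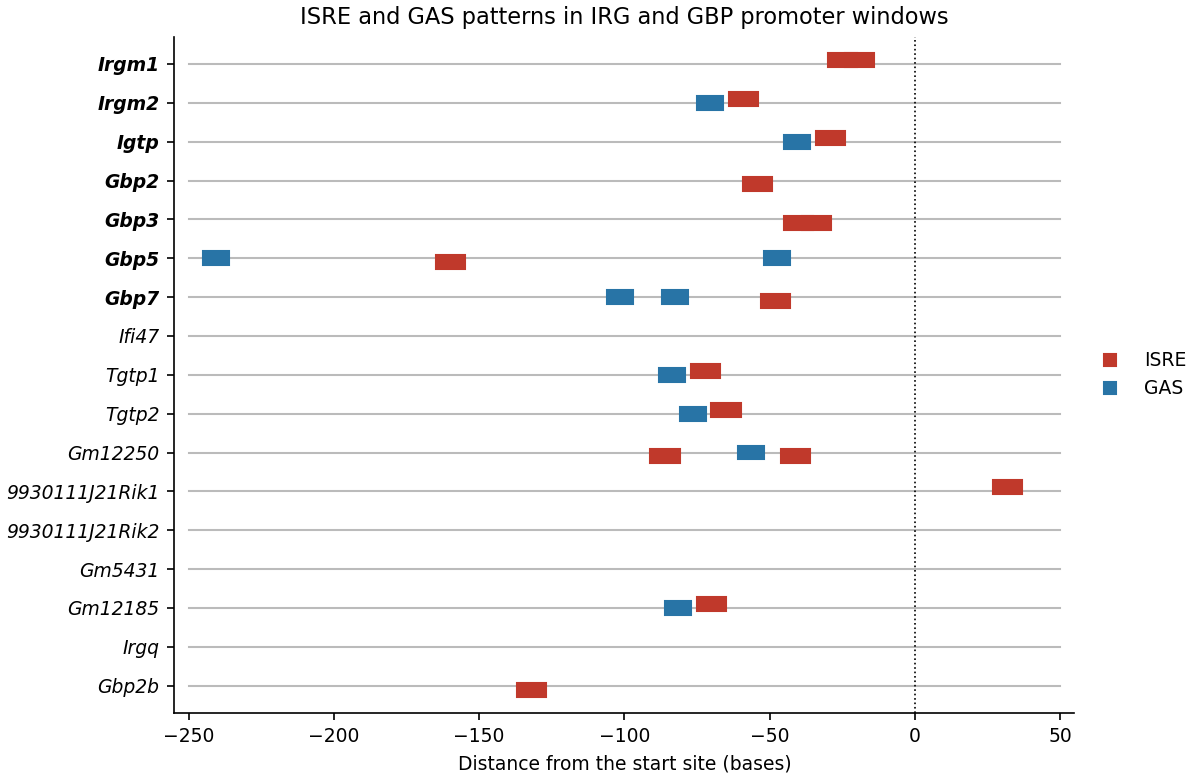
Positions of ISRE (red) and GAS (blue) pattern matches in the promoter windows of IRG and GBP genes, by distance from the start site in bases. Red blocks above a line are matches on the gene's strand and those below it on the other strand, and the GAS pattern reads the same on both. The 8 genes' entries are in bold (7 have one), and 6 of those 7 have an ISRE match within the last 64 bases before the start, Gbp5 having its match at -165.

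In Irgm2 and Igtp the GAS pattern was followed 2 bases later by the ISRE pattern, and this joint arrangement was searched after the single matches had been seen. The joined pattern, GAS then any 2 bases then ISRE with no other change, occurred in 5 of the 32851 windows (0.0152%), and all 5 belonged to IRG genes of chromosome 11. They are printed with the pattern in capitals to show how alike the flanks are, at chr11:58214897-58214927 (Irgm2), chr11:58199506-58199536 (Igtp), chr11:48992309-48992339 (Tgtp1), chr11:49064268-49064298 (Tgtp2) and chr11:48927243-48927273 (Gm12185), the last 3 on the minus strand.
Irgm2: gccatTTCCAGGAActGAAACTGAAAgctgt
Igtp: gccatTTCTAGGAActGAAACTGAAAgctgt
Tgtp1: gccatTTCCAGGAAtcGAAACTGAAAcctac
Tgtp2: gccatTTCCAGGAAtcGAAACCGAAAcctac
Gm12185: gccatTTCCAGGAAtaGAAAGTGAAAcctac
The first 5 bases are the same in every stretch, while the last 5 are shared within the Irgm2 and Igtp pair and within the other 3 genes. These genes belong to 1 family and stretches may be alike by descent, so they are not independent occurrences.

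All 3 regulatory IRGs were highest in TC, and in TCZ Irgm1 and Irgm2 stood below control while Igtp overlapped it. Levels are the authors' RPKM (reads per kilobase of gene length, scaled to the library total), and log2 differences with their standard error (SE) come from the edgeR fit on counts. In these bulk libraries, a change in how many cells express a gene and a change in RNA per cell cannot be told apart. Irgm1 (chr11:48865245-48871454 on mm10) had 18.1 and 18.5 RPKM in control, 45.2 and 45.3 with TC, and 2.24 and 2.59 with TCZ. Its libraries lay close together within every group, and the groups were far apart, with TC above control and TCZ below it. The log2 difference was 1.45 ± 0.07 for TC minus control (2.74-fold higher), -2.73 ± 0.09 for TCZ minus control and -4.19 ± 0.09 for TCZ minus TC.

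Irgm2 (chr11:58214977-58222783) had 1.21 and 0.742 RPKM in control, 7.14 and 6.74 with TC, and 0.296 and 0.468 with TCZ. The groups did not overlap, although control libraries differed more from each other than those of TC. Its log2 difference was 2.91 ± 0.17 in TC against control. In TCZ against control it was -1.30 ± 0.23 (-1.84 without control 2 and TCZ 2, and -1.84 to -0.80 over the alternatives). Between TCZ and TC it was -4.21 ± 0.20. Igtp lies next to Irgm2 (chr11:58199556-58207592) and had 0.755 and 0.626 RPKM in control, 4.63 and 4.08 with TC, and 0.701 and 0.496 with TCZ. TCZ and control libraries of Igtp overlapped, with a log2 difference of 0.03 ± 0.26 (-0.18 when libraries are scaled by their totals alone). TC exceeded control by 2.77 ± 0.22 on the log2 scale, a 6.82-fold difference, and the TCZ minus TC difference was -2.74 ± 0.22.

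Neighbouring Irgm2 and Igtp thus had near-equal TC minus control differences but not the same position in TCZ against control: below control for Irgm2 and overlapping it for Igtp. These genes share some sequence: 7.83% of the 50-base stretches of Irgm2 and 11.8% of those of Igtp occur in another gene's transcripts, mainly each other's, against 0.379% for Irgm1. How reads that match both were counted is not given in the sources used here.

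The effector Iigp1 was almost silent outside TC. Iigp1 (chr18:60373621-60392634) had 16 and 2 counts in control, 467 and 426 with TC, and 15 and 11 with TCZ, or 0.0995 and 0.0216, 2.73 and 2.42, and 0.082 and 0.128 RPKM. Both TC libraries were far above the other 4, and TCZ overlapped control. The TC minus control difference was 5.32 ± 0.33 on the log2 scale (39.9-fold), and it ranged with the control library left out, from 4.76 without control 2 to 7.04 without control 1. The TCZ minus control difference of 0.68 ± 0.51 was 2.39 without control 1, 0.11 without control 2 and -0.10 without control 2 and TCZ 2, so that its sign rests on these shallow counts. The TCZ minus TC difference was -4.64 ± 0.32, and -4.86 without those 2 libraries.

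The 4 GBPs lie in a cluster on chromosome 3, with Gbp2b between Gbp3 and Gbp2, and all 4 were highest in TC. In TCZ, Gbp2, Gbp3 and Gbp5 stayed above both control libraries. Gbp2, which coats pathogen vacuoles and cytosolic bacteria, spans chr3:142620663-142638008. It had 1.16 and 1.56 RPKM in control, 19.3 and 20.9 with TC, and 4.33 and 4.38 with TCZ. The groups were well apart, with TCZ between the others. Gbp2 was 16.7-fold higher in TC and 3.77-fold higher in TCZ than in control, or 4.06 ± 0.12 and 1.92 ± 0.13 on the log2 scale, and the TCZ minus TC difference was -2.15 ± 0.10.

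Gbp3 (chr3:142560016-142573213) had 0.269 and 0.221 RPKM in control, 3.84 and 4.24 with TC, and 0.691 and 0.564 with TCZ. It followed the order of Gbp2 at a lower level, with log2 differences from control of 4.14 ± 0.21 in TC and 1.55 ± 0.24 in TCZ, and of -2.59 ± 0.18 between TCZ and TC. Gbp5, known for its part in inflammasome assembly, spans chr3:142496934-142522344. Its counts were 1 and 1 in control, 160 and 136 with TC and 15 and 10 with TCZ, which is 0.00712 and 0.0123, 1.07 and 0.885, and 0.0938 and 0.133 RPKM. With 2 control counts in all, the TC to control ratio was 118, with a 95% counting interval of 32.5 to 983. The TCZ to control ratio was 13.5, with an interval of 3.37 to 118. The intervals cover counting error only.

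Gbp7 (chr3:142530336-142550151), an antimicrobial GBP of the same cluster, had 0.329 and 0.318 RPKM in control, 2.31 and 1.89 with TC, and 0.266 and 0.571 with TCZ. Unlike the other 3 GBPs, Gbp7 overlapped between TCZ and control, since TCZ 1 lay below and TCZ 2 above both control libraries. Its log2 difference was 2.83 ± 0.23 in TC and 0.45 ± 0.27 in TCZ against control, and the latter was -0.13 without control 2 and TCZ 2. The TCZ minus TC difference was -2.38 ± 0.22. Of the 50-base stretches of Gbp7, 12.7% occur in another gene, which is the highest share among the 8, and the other GBP members had 1.44% to 3.75%. Gbp3 overlaps a long noncoding gene on the opposite strand with 4 counts in all libraries, and Gbp2 holds a microRNA gene with 0 counts.

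**Figure D2:**
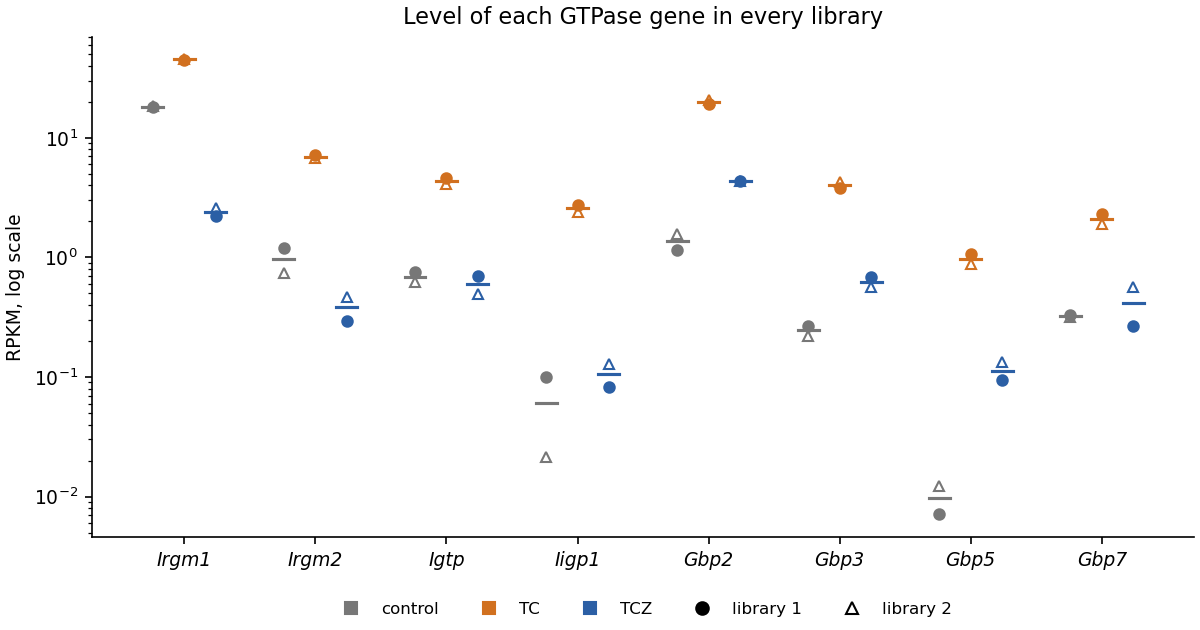
RPKM of each of the 8 genes in every library on a log axis, by group (grey control, orange TC, blue TCZ), with circles for library 1, triangles for library 2 and bars for group means. TC libraries are the highest for all 8 genes, and TCZ lies below control for Irgm1 and Irgm2, overlaps it for Igtp, Iigp1 and Gbp7, and lies above it for Gbp2, Gbp3 and Gbp5.

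The make-up of the RNA from these genes differed between the groups. The 8 genes summed to 21.9 ± 0.0618 RPKM in control, 86.3 ± 0.268 in TC and 9.02 ± 0.446 in TCZ (mean ± SD, n = 2). Irgm1 held 83.3 ± 1.06% of that sum in control, 52.4 ± 0.0132% in TC and 26.8 ± 1.45% in TCZ. Gbp2 held 6.2 ± 1.3%, 23.3 ± 1.28% and 48.4 ± 2.03%. The summed level in TCZ was thus below control although 3 of the GBPs were above it, because Irgm1 makes up most of the control sum.

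**Figure D3:**
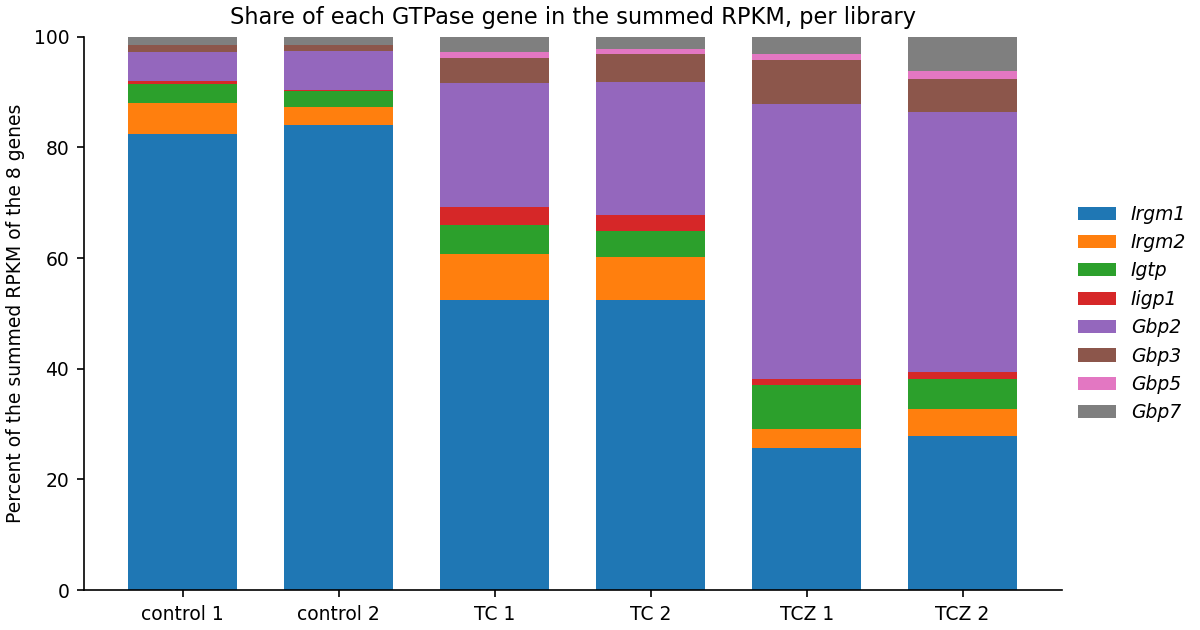
Share of each gene in the summed RPKM of the 8 genes, stacked per library from 0 to 100%. Irgm1 takes 83.3% on average in control and 26.8% in TCZ, while Gbp2 goes from 6.2% to 48.4%, and the libraries of a group resemble each other.

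In control the order of mean levels was Irgm1, Gbp2, Irgm2, Igtp, Gbp7, Gbp3, Iigp1 and Gbp5, and the libraries of Gbp2 and Irgm2, and of Irgm2 and Igtp, overlapped. In TC the order was Irgm1, Gbp2, Irgm2, Igtp, Gbp3, Iigp1, Gbp7 and Gbp5, with an overlap of neighbours for Igtp and Gbp3 alone. In TCZ Gbp2 came first and Irgm1 after it, followed by Gbp3, Igtp, Gbp7 and Irgm2, whose neighbours overlapped at each step, and by Gbp5 and Iigp1, which also overlapped.

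Across the 8 genes the median log2 difference was 3.49 for TC minus control (range 1.45 to 6.73), 0.56 for TCZ minus control (-2.73 to 3.63) and -2.92 for TCZ minus TC (-4.64 to -2.15). Over all 18563 genes tested, the medians were 0.02, 0.05 and 0.02. All 8 passed the low-count filter. The fit placed 8 of 8 as higher in TC than in control, where 60.7% of all genes tested passed, 31.5% as higher and 29.1% as lower. In TCZ against control 3 passed as higher (Gbp2, Gbp3 and Gbp5) and 2 as lower (Irgm1 and Irgm2), where 60.1% of all genes passed, 31.5% as higher and 28.6% as lower. In TCZ against TC 8 passed as lower, where 56.1% of all genes passed, 28.2% as higher and 27.9% as lower. Since the genes were chosen from these contrasts, nothing is read from the counts. The share of all genes whose libraries lie apart between groups was not counted here. Nothing is therefore read from how many of the 8 genes were highest in TC or apart from control in TCZ. All 3 comparisons draw on the same 6 libraries, and both treated groups share the control libraries. Without control 2 and TCZ 2, the median for TCZ minus control was -0.01, and the medians for TC minus control and TCZ minus TC were 3.38 and -3.08.

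The scaling of libraries moved the comparison of TCZ against control most and that of TCZ against TC least. With library totals in place of TMM factors, the median of all genes shifted by -0.14, -0.20 and -0.06 in the 3 comparisons, and 4556 genes passed as higher and 7017 as lower in TCZ against control, against 5851 and 5313 with TMM. Among the differences of the 8 genes in the 3 comparisons, only that of Igtp between TCZ and control changed its sign with library totals.

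Genes of the same families outside the 8 were tested with edgeR's quasi-likelihood test. They are family members and neighbours of the chosen genes, so they are not an independent choice. Of 13 other IRG genes in the table, 12 passed the low-count filter, and Irgc1 was left out by it. In TC against control 11 of the 12 rose and 0 fell, with a median log2 difference of 3.73 (2.18 with 2 genes set at the bound that counts of 0 allow). In TCZ against TC 9 fell and 1 rose, with a median of -2.25. In TCZ against control 3 rose and 1 fell, with a median of 0.73 (0.80 with 1 gene at its bound).

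Ifi47 (Irgd), an IRG with basal expression, had 1.54 and 1.57 RPKM in control, 3.13 and 2.71 with TC, and 0.779 and 1.04 with TCZ. It rose in TC by 1.05 ± 0.20 (log2, adjusted p = 0.000107) and was lower in TCZ than in TC (-1.66 ± 0.21, adjusted p = 9.45e-07). Its TCZ minus control difference of -0.61 ± 0.23 (adjusted p = 0.0235) did not pass with DESeq2 (0.0776), without control 1 (0.0985) or without TCZ 1 (0.191), and was -0.80 (0.0261) without control 2 and TCZ 2. Ifi47 thus took the same order as Irgm1, with TC above control and TCZ below it, at a smaller size. Ifi47 overlaps the odorant receptor gene Olfr56, which had 64 counts in all.

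Several other IRG genes, unlike Ifi47, rose in TC from low or absent control counts. Tgtp1 and Tgtp2, the T-cell-specific GTPases (Irgb6), rose by 5.67 ± 0.50 (adjusted p = 1.66e-09) and 5.08 ± 0.77 (6.40e-06) on the log2 scale and were lower in TCZ than in TC by -3.90 ± 0.42 (6.46e-08) and -4.28 (3.86e-05). These paralogs share 81.2% and 86.6% of their 50-base stretches with another gene, so the split of reads between them is uncertain. Tgtp1 in TCZ against control (1.77 ± 0.70, adjusted p = 0.033) lost its call without either control library (0.134 and 0.0725), without TCZ 2 (0.114), and without control 2 and TCZ 2 (0.156). Tgtp2 had 4 and 0 counts in control and 1 and 5 in TCZ, and its difference there was 0.80 ± 1.14 (0.571), with a sign that turned without control 2 and TCZ 2 (-1.88, 0.285). Its TC minus control difference was 4.38 and its TCZ minus TC difference -6.26 without those libraries, and the first was 9.16 without control 1, where no control count is left.

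F830016B08Rik and Gm4951, relatives of Iigp1 on chromosome 18, were 210-fold (counting interval 37.3 to 8316, adjusted p = 5.74e-08) and 60.8-fold (20.6 to 297, 3.48e-07) higher in TC than in control. Their control counts were 1 and 0 for F830016B08Rik and 0 and 3 for Gm4951, so each ratio rests on 1 control library. Over the alternatives the fitted log2 difference ranged from 6.82 to 9.75 for F830016B08Rik and from 4.50 to 9.82 for Gm4951, the highest values being those without the control library that held the counts. Gm4841 had 0 counts in control and TCZ and 41 and 27 in TC, which is at least 18.1-fold higher against 3 counts over the control group (adjusted p = 0.000105 with edgeR; 0.197 with DESeq2). Gm12250 (Irgb10) rose by 2.38 ± 0.78 in TC (0.0114) and was lower in TCZ than in TC (-2.27, 0.0174). Both calls of Gm12250 were lost without control 2 and TCZ 2 (0.075 and 0.08). The call in TC was also lost without control 2 alone (0.081), and that between TCZ and TC when any 1 TC or TCZ library was left out (0.0577 to 0.0939).

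The remaining calls were near the threshold. In TC against control 9930111J21Rik1 differed by 0.56 ± 0.20 (0.0183, but 0.105 with library totals and 0.0516 with DESeq2). At 0.46 without control 1 and 0.53 without TC 1 its call was lost. 9930111J21Rik2 differed by 1.99 (0.0354, but 0.0567 with library totals and 0.0717 with DESeq2). At 2.27 without control 1, 1.79 without control 2 and 1.83 without TC 1 its call was lost. These genes share 83.2% and 59.8% of their 50-base stretches with another gene, mainly each other, so the split of reads between them is uncertain. Gm12185 differed by 1.88 (0.0182). Its call was lost at 1.29 without control 1 and 1.65 without TC 1, and its difference was 2.61 without control 2 and TCZ 2. Gm5431 had 0 and 0 counts in control, 11 and 0 with TC, and 14 and 2 with TCZ, so its call in TC rests on TC 1. Without control 1 or without TC 1 the number of IRG genes that rose in TC was 7.

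Irgq, a family member known as an autophagy-linked protein and not as an interferon target, went the other way. It had 9.04 and 9.92 RPKM in control, 7.48 and 8.07 with TC, and 13.3 and 12.8 with TCZ. It was higher in TCZ than in control by 0.67 ± 0.08 (adjusted p = 1.11e-07) and than in TC by 0.81 ± 0.08 (8.88e-09), while TC minus control was -0.14 ± 0.08 (0.123; -0.28 and 0.00119 with library totals). Apart from Gm5431, Irgq was the only other IRG with a positive TCZ minus TC difference.

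Of the 7 other GBP genes, 3 passed the filter, and all 3 were higher in TC than in control and lower in TCZ than in TC. The median log2 differences were 5.32 and -3.51. Between TCZ and control 2 rose and 0 fell (median 1.23), and 1 rose without control 1. Gbp9 rose by 4.74 ± 0.25 (adjusted p = 2.98e-13) in TC and was above control in TCZ by 1.23 ± 0.32 (0.00243; 0.94 and 0.0693 without control 1; 1.55 and 0.00531 without control 2 and TCZ 2). Gbp6 rose by 5.32 ± 0.42 (3.37e-10) in TC and by 1.90 ± 0.55 (0.00523) in TCZ, and 70.7% of its 50-base stretches occur in another gene. Gbp4 had 0 and 1 counts in control, 78 and 84 with TC, and 0 and 0 with TCZ. Its TC to control ratio was 130 (counting interval 23.0 to 5154, adjusted p = 9.30e-07) and rests on the single count of control 2, and TCZ to TC was at most 0.0250 (8.60e-07). Gbp2b, Gbp8, Gbp10 and Gbp11 did not pass the filter. In TCZ, then, Gbp6 and Gbp9 stood above control as Gbp2, Gbp3 and Gbp5 did, whereas Gbp4 was not detected.

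**Figure D4:**
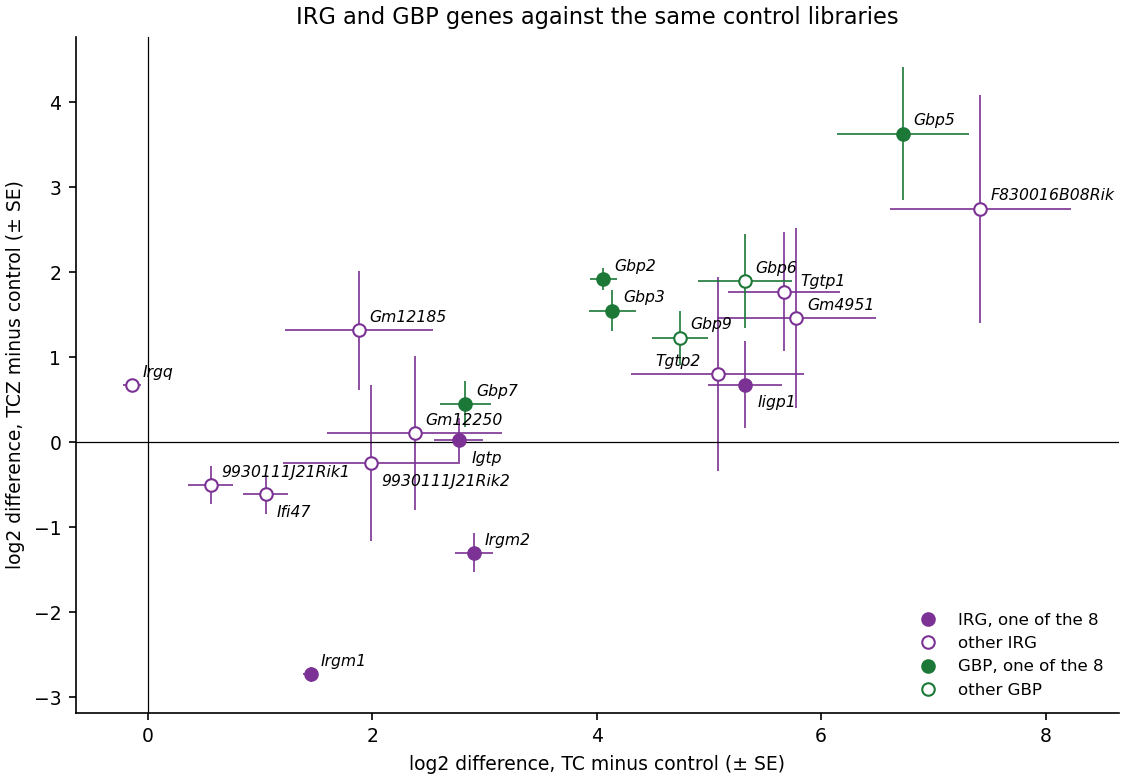
log2 difference from control in TC (horizontal) and TCZ (vertical) for IRG (purple) and GBP (green) genes tested, filled for the 8 genes, with bars of ± SE. Both axes share the control libraries. Gm4841, Gm5431 and Gbp4, which had 0 counts in every library of a group, are left out. Genes with few control counts, such as Gbp5, F830016B08Rik, Gm4951 and Tgtp2, are drawn. Genes to the right of the vertical line and below the horizontal one, such as Irgm1, Irgm2 and Ifi47, were above control in TC and below it in TCZ.

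Genes that make and read the interferon signal were taken from lists by role. Of 17 interferon genes in the table, 3 had enough counts. Ifnb1, the interferon-β gene, had 0 and 0 counts in control, 16 and 7 with TC, and 12 and 0 with TCZ. It was at least 6.14-fold higher in TC than in control (edgeR's quasi-likelihood test, adjusted p = 0.00765; 0.0993 without control 1 and 0.0595 without control 2), and in TCZ its counts all came from TCZ 1. Ifna13 had 0 and 0, 12 and 18, and 1 and 0 counts, at least 8.01-fold higher in TC (0.00167). Ifnab had 0 and 0, 0 and 2, and 210 and 88 counts, so this transcript was at least 108-fold higher in TCZ than in control (1.82e-09), in the group where the GTPase genes were lower than in TC. Ifng, the gene for interferon-γ, had 0 counts in every library.

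Receptor subunits showed smaller differences. Of 5 tested, 4 rose in TC. In TCZ against control 2 rose and 1 fell, and in TCZ against TC 4 fell. Ifnar1 rose by 0.47 ± 0.08 (1.45e-05) and Ifngr1 by 1.07 ± 0.08 (9.21e-11) in TC. Ifngr1 remained above control in TCZ by 0.72 (8.88e-08), while Ifngr2 was below control there (-0.47 ± 0.07, 1.02e-05).

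Signalling genes divided in TCZ. Of 11 JAK, STAT and IRF genes tested, 10 rose in TC (median 1.29). In TCZ against control 7 rose and Tyk2 fell (median 0.66; with library totals 7 rose and 4 fell), and in TCZ against TC 2 rose and 8 fell (median -0.40). Irf9, the DNA-binding subunit of ISGF3, had 5.41 and 5.42 RPKM in control, 15 and 14.3 with TC, and 4.61 and 4.48 with TCZ. It was highest in TC and near control in TCZ, as Igtp was. Irf9 rose in TC by 1.57 ± 0.09 (1.49e-12) and was lower in TCZ than in TC (-1.62 ± 0.09, 2.61e-12). Its TCZ minus control difference was -0.05 ± 0.10 (0.681), and -0.25 (0.0223) with library totals. Stat2 rose by 1.29 ± 0.08 (1.11e-11) in TC and by 0.90 ± 0.09 (6.83e-09) in TCZ.

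Irf1, which encodes an ISRE-binding factor known to drive GBP genes, took another order. It had 2.98 and 3.28 RPKM in control, 7.72 and 8.98 with TC, and 34.5 and 31.3 with TCZ. Irf1 rose in TC by 1.56 ± 0.10 (7.49e-12) and in TCZ by 3.60 ± 0.10 (4.03e-18), and was 4.11-fold higher in TCZ than in TC (3.52e-14). Irf1 RNA was highest in TCZ, while the RNA of each of the 8 GTPases was highest in TC. Both groups received cycloheximide, and IRF1 protein was not measured here. The part of Irf1 in the levels of these genes was not tested.

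Among 8 feedback inhibitors 6 rose in TC and 8 in TCZ, and in TCZ against TC 2 rose and 2 fell. Socs1, an inhibitor of Janus kinases, was above control by 0.76 ± 0.22 in TC (0.00454; 0.42 and 0.152 without control 1) and 1.06 ± 0.22 in TCZ (0.000245), and the groups differed by 0.31 (0.211). Usp18, which restrains type I interferon signalling and is itself an interferon target, rose by 3.99 ± 0.17 (8.82e-15) in TC and was lower in TCZ than in TC (-2.77 ± 0.15, 1.67e-12).

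**Figure D5:**
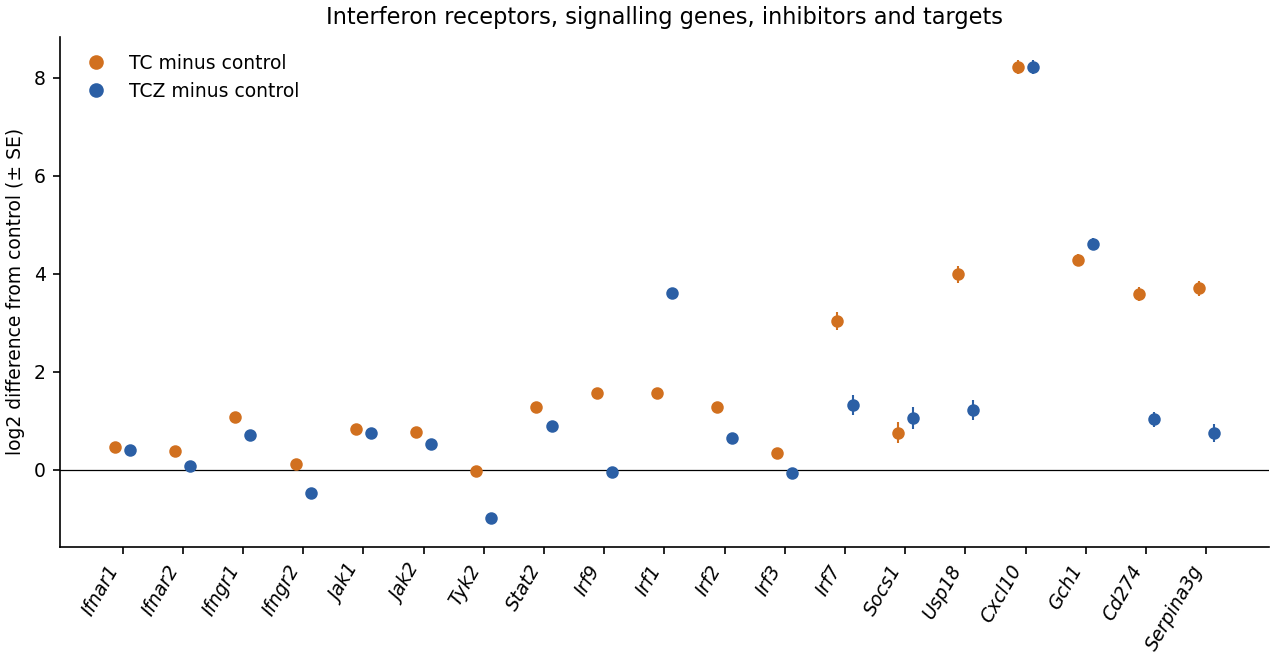
log2 difference from control (± SE) in TC (orange) and TCZ (blue) for interferon receptors, signalling genes, inhibitors and targets; both share the control libraries. TCZ lies below TC for Irf9, Irf7, Usp18, Cd274 and Serpina3g, with Cxcl10 at 8.22 in TC and 8.21 in TCZ and Irf1 at 3.60 in TCZ against 1.56 in TC.

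Most other interferon targets took the order of the GTPases in TC and TCZ, with exceptions. Of 16 antiviral genes, 16 rose in TC (median 3.85) and 15 fell in TCZ against TC (median -3.01), Zbp1 not passing. Against control, 10 rose in TCZ and Ifit2 fell. The sum of these TCZ against control calls, 11, was 6 without control 1, control 2 or TCZ 1 and 7 without control 2 and TCZ 2. Ifit1 rose by 5.15 ± 0.14 (2.48e-18) in TC, and its TCZ minus TC difference was -3.44 ± 0.12. All 4 genes of a list of other interferon-induced GTPases rose in TC and were lower in TCZ than in TC, among them Mx2, listed as a transcribed pseudogene in the table (7.64 ± 0.30, 2.29e-15, and -4.45, 2.20e-13; TC minus control was 6.52 without control 1 and 9.64 without control 2 and TCZ 2) and Gvin1 (3.87 ± 0.24, 3.87e-12, and -3.07, 1.33e-10).

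Of 12 interferon-γ-linked targets tested, 11 rose in TC (median 2.49), and 9 fell and 2 rose in TCZ against TC (median -0.96). Cd274, the gene for PD-L1, rose by 3.58 ± 0.14 (1.24e-15) in TC and was lower in TCZ than in TC (-2.55 ± 0.13, 2.62e-13). The chemokine gene Cxcl10 rose by 8.22 ± 0.14 in TC (4.33e-21) and 8.21 ± 0.14 in TCZ, with a difference of -0.01 ± 0.08 between them (0.958). Gch1, for the first enzyme of tetrahydrobiopterin synthesis, was slightly higher in TCZ than in TC (0.32 ± 0.09, 0.00388; 0.0714 without TC 1 and 0.156 without TCZ 1). In TCZ, Cxcl10 and Gch1 thus kept TC-like levels while each of the 8 GTPase genes was at least 2.15 lower than in TC on the log2 scale.

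Outside both families, the genes with the profile most like the members' median were named by the root mean square difference of centred log2 CPM over 6 libraries, among 10037 genes. They were Ppp1r12b (0.14), Ifih1 (0.17), Egln3 (0.18), Itga2 (0.19) and Bdkrb2 (0.21). The 8 genes themselves lay at 0.28 (Igtp) to 1.19 (Irgm1) from their own median, Gbp5 being at 0.29, Gbp7 at 0.34, Gbp3 at 0.36, Iigp1 at 0.42, Irgm2 at 0.58 and Gbp2 at 0.61. By this measure Irgm1 was the member least like the median profile. The 0.5 CPM added to each value narrows the differences of genes with few counts. Gbp5, with 0.0206 and 0.0332 CPM in control, lay near the median here although its fitted TC minus control difference was 6.73.

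The nearest tested genes outside both families on each side of the clusters did not share a single pattern. Beside the GBP cluster, Pdlim5 rose in TC by 0.77 ± 0.07 (6.35e-09) and differed little between TCZ and TC (-0.08, 0.348), and Kyat3 fell in TC (-1.05 ± 0.24, 0.000613) and was higher in TCZ than in TC (1.16, 0.000265). Beside the Igtp and Irgm2 pair, Mrpl22 (-0.59, 0.000326) and Zfp692 (-0.76, 0.00362) fell in TC. On 1 side of Iigp1, BC023105 rose in TC (3.83 ± 0.95, 0.00147). Its difference was 3.11 without control 2 and TCZ 2 and up to 7.89 over the alternatives. BC023105 is in neither family list, but 10% of the 50-base stretches of the IRG gene Gm4841 occur in another gene, mainly BC023105. On the other side of Iigp1, Chsy3 did not pass (-0.10, 0.371). It lies 962285 bases away, beyond the IRG genes F830016B08Rik, Gm4841 and Gm4951. The gene ENSMUSG00000086245.1, of the antisense class and 11752 bases from Irgm1, rose in TC (2.32 ± 0.72, 0.00799). Without control 1 its difference was 1.75 and the call was lost. It was lower in TCZ than in TC (-3.20, 0.0019), at -2.02 without TCZ 1 and -5.45 without control 2 and TCZ 2. Over 6997 bases it overlaps the protein-coding gene Trim7 on the opposite strand, which had 616 counts in all. With no strand setting given, whether Trim7 reads were counted for it is not known. On the other side of Irgm1, Psme2b did not pass in TC (0.58, 0.0672) and was lower in TCZ than in TC (-0.98, 0.00518). Psme2b overlaps the IRG gene 9930111J21Rik1 by 261 bases on the same strand. That gene's log2 differences were 0.56 for TC minus control and -1.06 for TCZ minus TC. How reads in the overlap were counted is not given in the sources used here.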

How the data were processed

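The authors deposited raw counts per gene and RPKM for each of the 6 libraries, per the file headers. The submitters' processing notes name HTSeq, HISAT2 2.1.0, bcl2fastq and the build mm10. A strand setting is not given in the sources used here. The authors' RPKM values equalled count over gene length and library total, with a largest difference of 5e-07. The 8 genes and all gene lists were chosen with earlier results of these data known.

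The counts were fitted with edgeR 4.0.16 under R 4.3.3. Of 48897 genes, 18563 passed filterByExpr (minimum count 10). With TMM factors and all 6 libraries in 1 model of group alone (3 residual degrees of freedom), edgeR's quasi-likelihood test was run for each comparison, with Benjamini-Hochberg adjustment over all genes tested (threshold 0.05). A value in parentheses after a log2 difference or ratio is this adjusted p unless named otherwise. The procedure was tested on simulated data. Since the libraries may be technical repeats, p-values cover no more than their spread. With 2 libraries against 2, an exact two-sided permutation test of a single gene cannot go below 0.333. Folds against a group at 0 use 3 counts over that group, and counting intervals (95%) cover counting error only.

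Named genes were the 8, every other IRG and GBP gene, the main interferon ligand, receptor and signalling genes, the 2 with the smallest adjusted p per list in TC against control and in TCZ against TC, the nearest tested gene outside both families on each side of each cluster of the 8, and the 5 with the most similar profile (mean of at least 5 CPM, log2 of CPM plus 0.5). Other genes named in list counts were chosen after their values were seen. Some genes that this rule or a list holds are not reported here. Sequence shared between genes was counted as 50-base stretches of the GENCODE M21 transcripts. Of the symbols, 36837 matched a RefSeq gene of GRCm38.p6, 99.9% of them on the same chromosome and 57.5% with the same start and end (6 of the 8 genes).

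Alternatives were DESeq2 1.42.0, RLE factors, library totals alone, all genes without a filter, at least 50 counts in 2 libraries, a block for the replicate number, each library left out in turn, and control 2 with TCZ 2 left out.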

Additional observations from a re-analysis of the deposited data

How the results depend on the processing

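For the named genes outside the 8, 1995 of 2112 values over the alternatives kept their call. A call is kept when the side of the threshold stays the same and no difference that passes changes direction. Differences that passed in neither fit could change sign, as that of Tgtp2 in TCZ against control did (0.80 to -1.88). Iigp1, Gbp5 and the low IRG genes had few counts outside TC. The TCZ minus control difference of Iigp1 was -0.10 without control 2 and TCZ 2. Ppp1r12b in TCZ against control was -0.16 with library totals alone (adjusted p = 0.0339). The median over the 8 genes was 3.37 to 3.66 for TC minus control, 0.24 to 1.13 for TCZ minus control and -3.08 to -2.82 for TCZ minus TC with 1 library left out. For TCZ minus control it was 0.38 with library totals and -0.01 without control 2 and TCZ 2, and for TCZ minus TC it was -3.08 without them. The number of other IRG genes passing in TC against control (11) was 7 with DESeq2, 6 with the filter of 50 counts in 2 libraries and 7 to 11 with 1 library left out. In TCZ against control it (4) was 2 with DESeq2 and 1 to 6 with 1 library left out, with 1 reached without control 1. The number of other GBP genes passing in TCZ against control (2) was 1 to 2 with 1 library left out, and 1 without control 1. Antiviral genes passing in TCZ against control (11) numbered 7 with library totals, 7 without control 2 and TCZ 2, and 6 to 10 with 1 library left out. The cause of these shifts was not tested beyond the smaller number of genes tested or libraries used.

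With the replicate number as a block, the medians were 3.50, 0.56 and -2.94, and 164 of 165 named values kept their call, 9930111J21Rik1 in TCZ against control being the other (adjusted p = 0.0409). Same-numbered libraries deviated together with correlations of 0.0115 (control and TC), 0.124 (control and TCZ) and -0.0215 (TC and TCZ), so the numbers were not taken as pairs. With the block 11240, 11166 and 10435 genes passed, against 11264, 11164 and 10414 without it.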

Other observations

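Genes whose products act with IRGs and GBPs at vacuoles or in inflammasomes did not take a common order. Of 17 tested, 10 rose and Atg5, an autophagy gene, fell in TC against control (edgeR's quasi-likelihood test, median log2 difference 1.01), 10 rose and 3 fell in TCZ against control, and 3 rose and 7 fell in TCZ against TC. Casp4 (caspase-11), the sensor of cytosolic lipopolysaccharide, rose in TC by 5.26 ± 0.20 (adjusted p = 1.30e-15; 4.61 to 5.93 over the alternatives) and in TCZ by 4.37 ± 0.21 (7.79e-14; 3.71 to 5.03), and was lower in TCZ than in TC by a smaller amount than any of the 8 GTPase genes (-0.89 ± 0.13, 6.80e-06). Rnf213, a giant ubiquitin ligase, rose in TC by 2.27 ± 0.07 (8.32e-17), and its TCZ minus TC difference was -2.12. Lgals3, which encodes the lectin galectin-3 that marks damaged vacuoles, rose by 1.18 ± 0.07 in TC and by 0.35 in TCZ.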
